A study of Mus musculus with 4 samples.

Results

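The genes Tnfsf11, Tnfrsf11a and Tnfrsf11b were taken by symbol as 3 of the 31053 genes in the single-cell count matrices of bone from control mice (Ctrl) and mice after hindlimb unloading (HLU). They encode RANKL, its receptor RANK and the decoy receptor osteoprotegerin. All mice were wild type, of the strain C57BL/6J per the study's methods. There were 2 Ctrl libraries and 2 HLU libraries, 1 library for each mouse, and the HLU mice had been suspended by the tail for 28 days so that the hind legs bore no weight. The study's methods and the description of the series give different ages for the mice, so no age is stated here. Tibiae and femurs of each mouse were flushed of marrow and the remaining tissue was digested with enzymes, so each library held the skeletal and blood cells that survived both steps.

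RANKL is a cytokine of the tumour necrosis factor family that osteoblast-lineage cells, osteocytes, hypertrophic chondrocytes, marrow stromal cells and activated T cells can make. It binds RANK on cells of the monocyte lineage and, with the growth factor M-CSF, drives them to become osteoclasts, the cells that resorb bone. Osteoprotegerin is a secreted receptor without a membrane anchor that binds RANKL and keeps it from RANK, so the balance of ligand and decoy is a usual measure of the signal for resorption.

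The Tnfsf11 gene (ENSMUSG00000022015) lies on the reverse strand of chromosome 14 from 78277445 to 78308043 in the mouse build mm10. Tnfrsf11a (ENSMUSG00000026321) lies on the forward strand of chromosome 1 from 105780718 to 105847981. Tnfrsf11b (ENSMUSG00000063727) lies on the reverse strand of chromosome 15 from 54250619 to 54278484. The assay counts unique molecular identifiers (UMIs), short tags that mark each captured transcript molecule at its 3′ end, and levels are given as CPM, the UMIs of a gene per 1000000 UMIs summed over a gate's cells in a library. Barcodes with 1000 to 40000 UMIs and at most 10% mitochondrial UMIs were kept, which left 7340 and 7635 (Ctrl) and 7757 and 9485 (HLU), at median depths of 3799 to 6294.5 UMIs. Cells were placed in a gate when at least 3 genes of one marker list stood above the library's own free RNA and no other list came close. Free RNA means transcripts that leaked from other cells into the droplets. Its profile was read from barcodes under 1000 UMIs, 2585 and 2212 in Ctrl and 2143 and 267 in HLU. Whether these barcodes also held cells was not tested.

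The gating rule asked for at least 3 markers of a cell's own list, so the counts of markers describe the gates and do not test their names. The median osteochondral cell (cartilage, bone and stromal cells) had 6 to 9 of 30 listed markers above free RNA, against 1 or 2 for the best other list. In the monocyte gate the median was 5 to 8 of 14 markers, and in the neutrophil gate 7 to 9 of 19. The rule did not fix the share of UMIs in a list. The neutrophil list took 25.5% to 30.5% of UMIs in the neutrophil gate, but also 0.364%, 0.582%, 0.617% and 0.706% of those in the monocyte gate, where the monocyte list took 0.717%, 0.694%, 0.799% and 0.647%. Without its gene Fn1 the monocyte list took 0.452%, 0.514%, 0.717% and 0.621% there. The neutrophil list was thus the larger of the pair in HLU replicate 2 with or without Fn1, and in Ctrl replicate 2 without Fn1. Its part in the monocyte values of these libraries was not tested. The osteochondral gate also held UMIs of the monocyte list (0.631% to 0.960% of UMIs), but this fell to 0.0652% to 0.0763% without Fn1, which skeletal cells also express. The number of osteochondral cells differed widely between the groups, 3303 and 2326 for Ctrl but 76 and 143 for HLU. Monocytes numbered 203 and 278 in Ctrl and 393 and 922 in HLU, and neutrophils 2310 and 3239 in Ctrl and 5170 and 6076 in HLU. HLU replicate 2 stood apart, with 99849070 UMIs against 47819046 to 61296053 in the other libraries and 230 barcodes over the upper UMI limit against 6 to 17. Between 13 and 21 kept barcodes were shared by any pair of libraries. How the tissue yielded so few osteochondral cells in HLU cannot be told apart from the treatment with 2 libraries a group, and p-values below measure only the spread between these libraries.

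**Figure D1:**
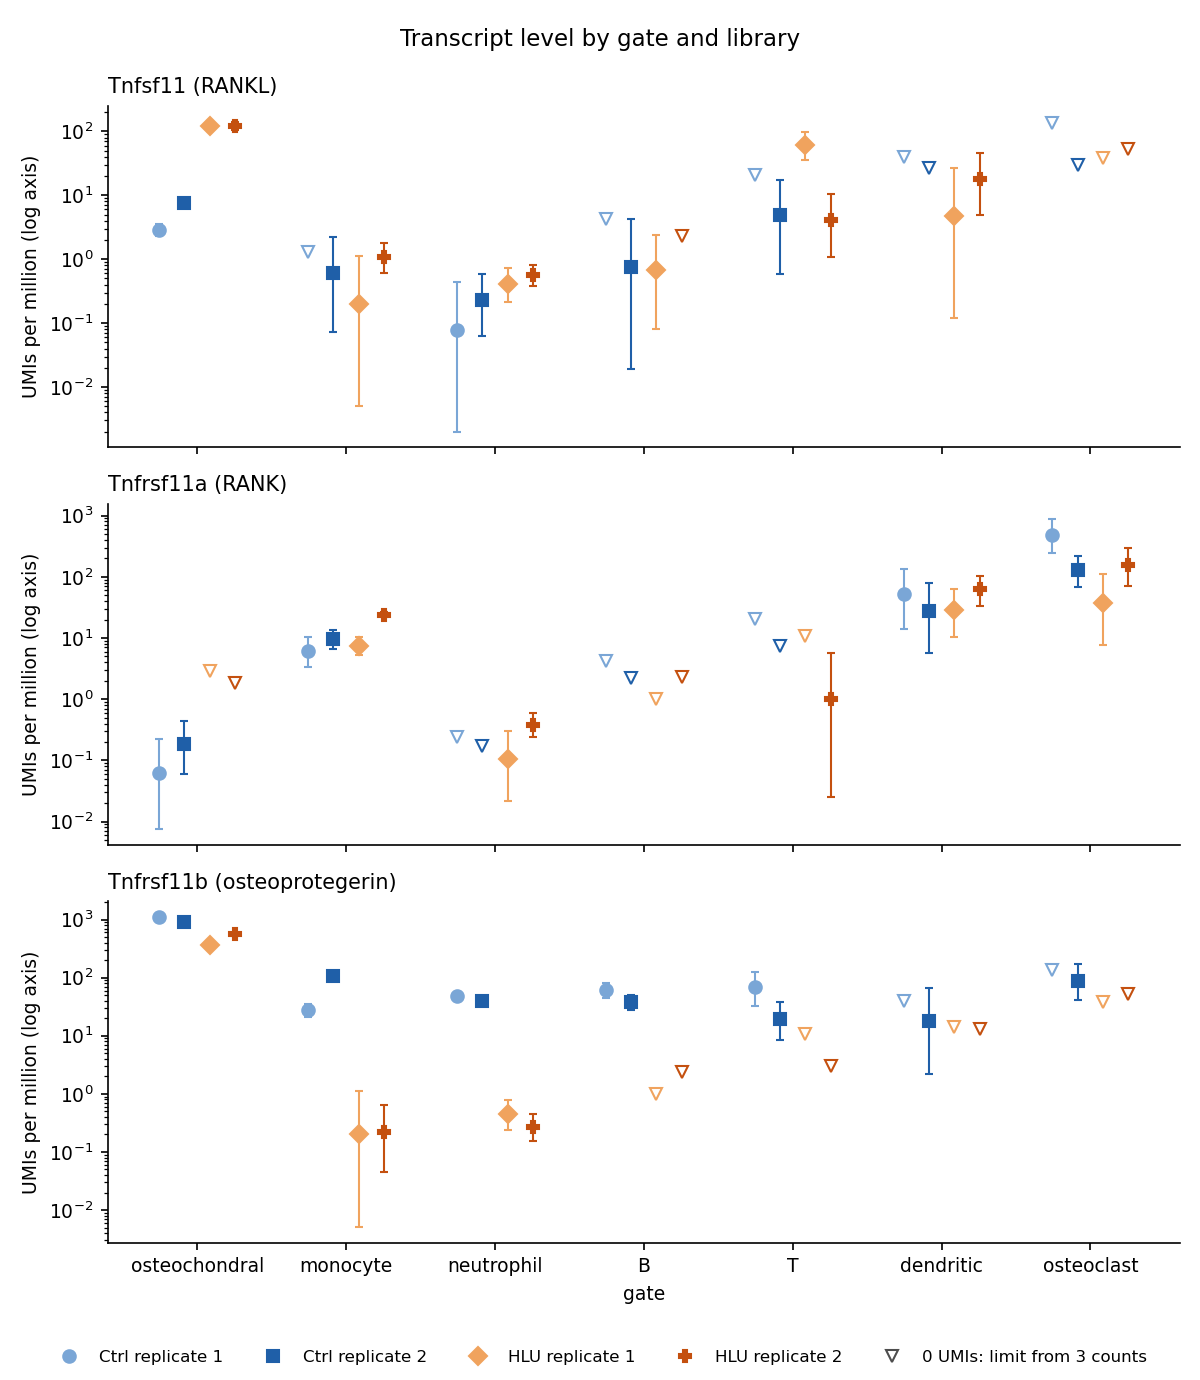
Level of each gene (CPM, log axis) in 7 gates, with 1 symbol for each library and exact Poisson intervals of 95%; open triangles mark gates with 0 UMIs, drawn at the level of 3 counts. Tnfsf11 in the osteochondral gate was 2.87 and 7.44 CPM in Ctrl and 121 and 122 CPM in HLU, Tnfrsf11a was highest in the few cells of the osteoclast and dendritic gates, and Tnfrsf11b in the blood-cell gates was seen almost entirely in Ctrl.

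Over all kept barcodes, Tnfsf11 had 115 UMIs in Ctrl replicate 1, 237 in Ctrl replicate 2, 206 in HLU replicate 1 and 342 in HLU replicate 2. The levels were 2.04 and 4.03 CPM in Ctrl and 4.54 and 3.90 CPM in HLU, and the groups overlapped (exact permutation test over libraries, two-sided, p = 0.667, n = 2 per group). With 2 libraries against 2 this exact permutation test cannot go below p = 0.3333. Tnfrsf11b had 39441 and 27792 UMIs in Ctrl and 420 and 1303 in HLU. Its levels were 701 and 473 CPM in Ctrl and 9.26 and 14.9 CPM in HLU, which did not overlap (exact p = 0.3333, the smallest possible). Tnfrsf11a had 38, 89, 62 and 557 UMIs in the same order of libraries, or 0.675 and 1.51 CPM in Ctrl and 1.37 and 6.36 CPM in HLU, with HLU replicate 2 alone above the rest (exact p = 0.667). In these mixtures of cells, fewer cells of a type and less RNA per cell cannot be told apart, so the levels below are given within gates.

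Most UMIs of the ligand and the decoy came from osteochondral cells. That gate held 71.2% ± 13.6 (SD, n = 4 libraries) of the Tnfsf11 UMIs and 84.6% ± 9.50 (SD, n = 4) of the Tnfrsf11b UMIs. For Tnfrsf11a the monocyte gate held the largest part in every library, 48.2% ± 13.6 (SD, n = 4). The remainder was spread over several other gates and over mixed and ungated barcodes. A mixed barcode carried markers of more than one list. In HLU replicate 2 mixed barcodes held 20.5% of the Tnfsf11 UMIs, 23.3% of the Tnfrsf11a UMIs and 27.7% of the Tnfrsf11b UMIs, more than in any other library.

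**Figure D2:**
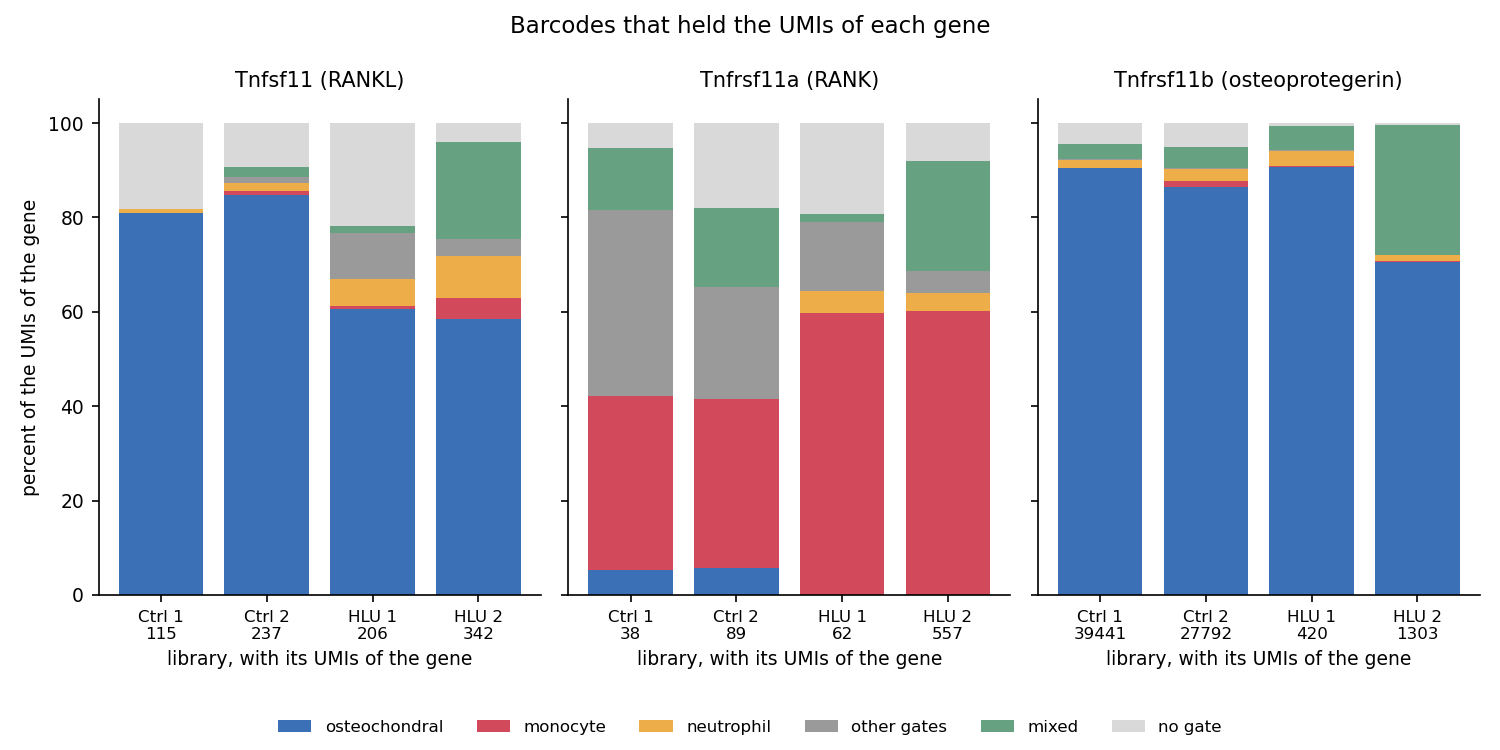
Share of each gene's UMIs (percent, vertical axis) by the gate of the barcode that held them, 1 bar for each library, with the number of UMIs of the gene under the bar. Osteochondral barcodes held 58.5% to 84.8% of Tnfsf11 and 70.6% to 90.7% of Tnfrsf11b, and monocytes 36.0% to 60.1% of Tnfrsf11a.

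The first question was where RANKL transcripts were made and whether they differed after unloading. In osteochondral cells Tnfsf11 reached 2.87 CPM (95% exact Poisson interval 2.31 to 3.51) in Ctrl replicate 1 and 7.44 CPM (6.45 to 8.55) in Ctrl replicate 2. In HLU replicate 1 it was 121 CPM (100.3 to 144) and in HLU replicate 2 it was 122 CPM (106 to 140). These intervals cover counting error only, and the neutrophil marker list took 0.437%, 0.711%, 1.499% and 0.672% of this gate's UMIs in the same order. Both HLU libraries lay above both Ctrl libraries, and the 4 values came from 93, 201, 125 and 200 UMIs. The difference was 4.21 ± 0.51 (log2 fold change ± SE) in edgeR's quasi-likelihood test and did not pass the threshold of 0.05 after Benjamini-Hochberg adjustment over all 13125 genes tested (adjusted p = 0.0908). In that comparison edgeR called 0 genes (0% of those tested), while 2337 had an unadjusted p under 0.05, and DESeq2 called 573. DESeq2 gave Tnfsf11 a log2 fold change of 4.21 with an adjusted p of 2.28e-11. When 1 library is left out, its group has a single library that is assumed to vary like the pair in the other group, so such a fit is a check on the value and no separate support for a call. Leaving out Ctrl replicate 2, HLU replicate 1 or HLU replicate 2 took the edgeR value past the threshold (log2 fold changes of 5.07, 4.26 and 4.16, adjusted p = 0.0324, 0.0221 and 0.0309), and leaving out Ctrl replicate 1 did not (3.67, adjusted p = 0.1204). Over all 16 alternatives the adjusted p ran from 3.70e-32 to 0.126 and the log2 fold change from 3.67 to 5.07.

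The Tnfsf11 UMIs came from few cells. In Ctrl replicate 1, 46 of 3303 osteochondral cells had a Tnfsf11 UMI (1.39%, 95% Clopper-Pearson interval 1.02% to 1.85%), and in Ctrl replicate 2, 64 of 2326 (2.75%, 2.13% to 3.50%). In each HLU library 18 cells had one, which was 23.7% (14.7% to 34.8%) of the 76 cells of HLU replicate 1 and 12.6% (7.63% to 19.2%) of the 143 cells of HLU replicate 2. The share of neutrophils with a Tnfsf11 UMI, cells that should lack the gene, was 0.0433% and 0.123% in Ctrl and 0.232% and 0.165% in HLU. Neutrophils had fewer UMIs per cell, with medians of 3586 to 6194.5 against 8596 to 11533 in osteochondral cells. With every cell thinned to 1000 UMIs the osteochondral shares became 0.263%, 0.470%, 9.13% and 5.81%, so the groups stayed apart at equal depth. The number of osteochondral cells that held at least 50 percent of the Tnfsf11 UMIs was 10, 5, 4 and 3, and 1 cell of HLU replicate 2 held 58 of its 200.

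The osteochondral cells were then split by markers into chondrocyte-like, osteoblast-like and stromal-like cells, with at least 2 markers needed. Chondrocyte-like cells were the largest subset in every library, 53.9% to 64.3% of the gate, and stromal-like cells made up 19.7% to 26.6%. The stromal-like cells held 45.2% and 54.7% of the gate's Tnfsf11 UMIs in Ctrl and 56% and 74.5% in HLU, more than any other subset. Their Tnfsf11 levels were 6.26 CPM in Ctrl replicate 1 (705 cells, 42 UMIs), 19.6 CPM in Ctrl replicate 2 (458 cells, 110 UMIs), 429 CPM in HLU replicate 1 (19 cells, 70 UMIs) and 333 CPM in HLU replicate 2 (38 cells, 149 UMIs). The HLU values lay above the Ctrl values within this subset as well. Of the stromal-like cells, 2.84% and 6.11% had a Tnfsf11 UMI in Ctrl and 52.6% (28.9% to 75.6%) and 28.9% (15.4% to 45.9%) in HLU.

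Osteoblast-like cells did not separate the groups for Tnfsf11. They had 4.28 CPM in Ctrl replicate 1 and 90.9 CPM in Ctrl replicate 2, where 1 cell held 34 of 51 UMIs, and 81.1 CPM and 201 CPM in HLU, from 7 and 10 cells. There 1 cell held 12 of 13 UMIs in HLU replicate 1 and 13 of 24 in HLU replicate 2. Chondrocyte-like cells had little Tnfsf11 in any library, at 0.765 and 1.44 CPM in Ctrl and 1.64 and 1.06 CPM in HLU, the HLU values resting on 1 UMI each. In barcodes under 1000 UMIs Tnfsf11 stood at 1.74 CPM (2 UMIs) and 2.31 CPM (3 UMIs) in Ctrl. In those of HLU it was 13.7 CPM (19 UMIs) and 15.3 CPM (3 UMIs). The chondrocyte-like values lay below these, but such small counts do not settle the order. The part of free RNA in the gate's Tnfsf11 was not tested. Osteochondral cells with under 2 subset markers, or a tie, had 6.17 and 5.06 CPM in Ctrl and 400.0 and 196 CPM in HLU, from 9 and 14 cells in HLU. Among them 1 cell held 15 of 32 and 5 of 14 UMIs in Ctrl, and 21 of 41 and 14 of 26 in HLU.

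**Figure D3:**
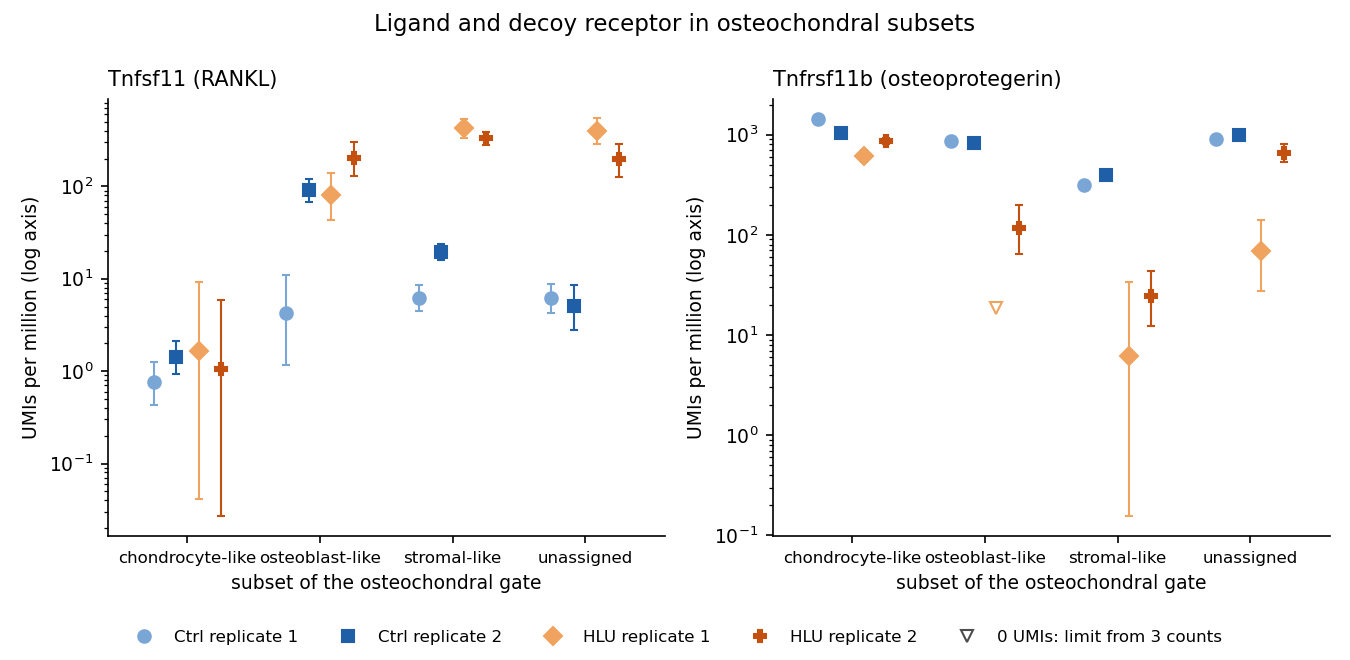
Level of Tnfsf11 and Tnfrsf11b (CPM, log axis) in marker-defined subsets of the osteochondral gate, with 1 symbol for each library, exact Poisson intervals of 95%, and an open triangle at the level of 3 counts where no UMI was found. In stromal-like cells Tnfsf11 was 6.26 and 19.6 CPM in Ctrl and 429 and 333 CPM in HLU, while Tnfrsf11b was 311 and 396 CPM in Ctrl and 6.13 and 24.6 CPM in HLU.

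Osteochondral cells with a Tnfsf11 UMI differed from the other cells of the gate in the listed genes, and this is a description of pooled cells within each library. Of the 14 chondrocyte genes in the files, 5 were lower with Tnfsf11 in all 4 libraries (Acan, Sox9, Hapln1, Col10a1 and Cytl1) and 0 were higher. Of all 12508 genes with a UMI in the gate in every library, 21.6% were higher in all 4 libraries and 8.41% were lower. Of the 14 stromal genes 3 were higher in all 4 libraries, 2 were lower (Cd34 and Thbs4) and 9 were neither. The count of higher ones was about the 21.6% over all genes, so it does not set the stromal list apart. Cxcl12, which holds blood stem cells in their niche, Kitl, the stem cell factor, and Prrx1, a transcription factor of limb mesenchyme, were the ones that were higher. Cxcl12 was 821 CPM against 104 CPM in Ctrl replicate 1, 163 against 67.5 in Ctrl replicate 2, 1061 against 131 in HLU replicate 1 and 853 against 144 in HLU replicate 2. Of 20 genes known to feed into RANKL and osteoprotegerin expression, 7 were higher in all 4 libraries in the cells with Tnfsf11 (Vdr, Ptger4, Csf1, Il6st, Il1r1, Lrp5 and Ctnnb1) and 2 were lower (Il11ra1 and Tgfbr2), which is to be read against the shares over all genes. Vdr, the vitamin D receptor, was 6.16 CPM against 0.786 in Ctrl replicate 1, 24.2 against 0.884 in Ctrl replicate 2, 99.3 against 38.2 in HLU replicate 1 and 188 against 2.89 in HLU replicate 2. Csf1, which encodes M-CSF, was 151 against 101 CPM, 92.7 against 69.6, 342 against 113 and 1651 against 359 in the same order. The cells with Tnfsf11 were deeper, with medians of 12714 to 14157 UMIs against 8563 to 10602.5.

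The decoy receptor had the opposite distribution. In osteochondral cells Tnfrsf11b was 1099 CPM (1088 to 1111) in Ctrl replicate 1, 890.0 CPM (879 to 901) in Ctrl replicate 2, 367 CPM (331 to 406) in HLU replicate 1 and 561 CPM (525 to 598) in HLU replicate 2. Both HLU libraries lay below both Ctrl libraries, with a log2 fold change of -1.43 ± 0.35 (SE) that did not pass the edgeR test (adjusted p = 0.167). DESeq2 called it (log2 fold change of -1.42, adjusted p = 0.00839). The edgeR value was -1.14 (adjusted p = 0.0422) without HLU replicate 1 and -1.84 (adjusted p = 0.0279) without HLU replicate 2, where the spread came from the Ctrl pair alone. Its adjusted p ran from 0.000798 to 0.770 over the 16 alternatives.

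Chondrocyte-like cells held 77.4% to 97.9% of the osteochondral Tnfrsf11b UMIs. In them Tnfrsf11b was 1434 and 1029 CPM in Ctrl and 610.3 and 857 CPM in HLU, and 58.5% to 85.2% of these cells had a UMI of it. Stromal-like cells had 311 and 396 CPM in Ctrl and 6.13 CPM (1 UMI) and 24.6 CPM (11 UMIs) in HLU, and the groups did not overlap. Osteoblast-like cells had 870.4 and 824 CPM in Ctrl, and in HLU 0 UMIs in 7 cells and 117 CPM in 10 cells, where 1 cell held 13 of 14 UMIs. A count of 0 in those 7 cells allows a share of up to 42.9% of cells with a UMI when 3 counts are taken as the limit. In barcodes under 1000 UMIs Tnfrsf11b stood at 512 and 346 CPM in Ctrl and at 14.4 and 40.9 CPM in HLU. The part of free Tnfrsf11b in the stromal-like and osteoblast-like values was not tested. The osteochondral marker list took 5.25% and 5.501% of UMIs in the Ctrl gate and 2.55% and 2.18% in the HLU gate.

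The relative amount of ligand and decoy transcripts was given by the share of Tnfsf11 in the sum of both genes' UMIs in osteochondral cells. It was 0.260% (95% Clopper-Pearson interval 0.210% to 0.319%) in Ctrl replicate 1 and 0.829% (0.719% to 0.952%) in Ctrl replicate 2. In HLU replicate 1 it was 24.7% (21.0% to 28.7%) and in HLU replicate 2 it was 17.9% (15.7% to 20.2%). The Clopper-Pearson intervals of this paragraph treat each UMI as independent. The Tnfsf11 UMIs came from 18 cells in each HLU library, so the intervals are too narrow where few cells hold the UMIs. The group means were 0.545% ± 0.402 in Ctrl and 21.3% ± 4.84 in HLU (SD over 2 libraries), a difference of 20.7 percentage points with no overlap (exact permutation test, two-sided, p = 0.3333, the smallest the design allows). Written the other way, there were 383 and 120 osteoprotegerin UMIs for each RANKL UMI in Ctrl and 3.05 and 4.60 in HLU. Within stromal-like cells the share was 1.97% and 4.71% in Ctrl and 98.6% and 93.1% in HLU. Free Tnfrsf11b enters these values, and its part was not tested. In barcodes under 1000 UMIs it stood at 512 and 346 CPM in Ctrl and 14.4 and 40.9 CPM in HLU. Within chondrocyte-like cells the Ctrl libraries had 0.0533% and 0.140% against 0.267% and 0.124% for HLU. The Clopper-Pearson intervals of both HLU libraries, 0.00677% to 1.48% and 0.00313% to 0.688%, took in those of both Ctrl libraries, while the Ctrl intervals, 0.0298% to 0.0879% and 0.0912% to 0.204%, did not overlap each other.

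The ligand and the decoy were then counted in the same cells. Among osteochondral cells with a Tnfsf11 UMI, 19 of 46, 20 of 64, 2 of 18 and 1 of 18 also had a Tnfrsf11b UMI. That was 41.3% and 31.3% in Ctrl and 11.1% and 5.56% in HLU, against 70.2%, 68.5%, 41.4% and 54.4% of the cells without Tnfsf11. Over the whole gate the share was lower in the cells with Tnfsf11 in all 4 libraries, and those cells were the deeper ones. Within stromal-like cells, with and without Tnfsf11, it was 10% and 39.7%, 25% and 46.5%, 10% and 0%, and 0% and 18.5%. In chondrocyte-like cells it was 92.3% and 85.1%, 42.9% and 76.7%, 0% and 60%, and 100% and 72.5% in the same order. In stromal-like cells the share was thus lower with Tnfsf11 in every library but HLU replicate 1, where the 10% was 1 of 10 cells. The direction varied in chondrocyte-like cells, and each HLU library had 1 chondrocyte-like cell with Tnfsf11. Osteochondral cells with a Tnfrsf11b UMI had 5 of the 14 chondrocyte genes higher in all 4 libraries (Col2a1, Acan, Sox9, Hapln1 and Cytl1) and 0 lower, and 0 of the 14 stromal genes higher and 6 lower, against 5.05% of all genes higher and 31.8% lower.

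Tnfsf11 and Tnfrsf11b were also set against neutrophils, a cell type that should make neither. The osteochondral gate lay above the neutrophil gate in every library for both genes. With the library as a block, the log2 fold change of Tnfsf11 was 6.61 ± 0.53 (SE; edgeR adjusted p = 0.000256) and that of Tnfrsf11b was 6.46 ± 1.46 (edgeR adjusted p = 0.00902). In this comparison 68.4% of the 14586 genes tested were called, 37.0% higher and 31.5% lower, so calls were common between such different cells. Tnfrsf11a did not pass the filter on low counts, with 2 and 5 UMIs in the Ctrl osteochondral cells and 0 in the HLU ones.

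Tnfrsf11b UMIs also lay in blood cells, nearly all of them in Ctrl, and the skeletal marker genes moved with them. In neutrophils it was 48.7 and 40.2 CPM in Ctrl and 0.450 and 0.274 CPM in HLU, a log2 fold change of -7.02 ± 0.41 (SE; edgeR adjusted p = 0.00826). In monocytes it was 27.5 and 106 CPM in Ctrl (63 and 350 UMIs) and 0.201 and 0.216 CPM in HLU (1 and 3 UMIs). The log2 fold change was -8.18 ± 0.92 (edgeR adjusted p = 0.0319). The HLU counts did not exceed the limit of 3 counts, and 1 barcode held much of the count of Ctrl replicate 2. The size of this fold change is thus poorly measured. edgeR called 3.19% of 12085 genes in neutrophils and 1.13% of 10397 in monocytes, all lower in HLU. The osteochondral marker list moved with it, at 0.172% and 0.171% of neutrophil UMIs in Ctrl and 0.00763% and 0.00247% in HLU, with 27 to 30 of its 30 genes seen in every library. In monocytes the list took 0.198% and 0.248% of UMIs in Ctrl and 0.00381% and 0.00230% in HLU, with 17 to 30 of its genes seen.

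An expected number of UMIs was computed for a background of osteochondral RNA, in which Tnfrsf11b keeps the ratio to the skeletal list that it has in the osteochondral cells of the same library. In Ctrl neutrophils 614 and 704 UMIs were observed against 453 and 485 expected, ratios of 1.35 (1.25 to 1.47) and 1.45 (1.35 to 1.56). The neutrophils of HLU had 13 and 15 against 31.7 and 34.9, ratios of 0.410 (0.218 to 0.701) and 0.430 (0.241 to 0.710). Ctrl monocytes had 63 against 94.98 and 350 against 132, and 1 barcode of Ctrl replicate 2 alone held 219 of the 350, which left 131 without it. B cells had 43 and 50 UMIs in Ctrl against 26.3 and 36.6 expected and 0 in both HLU libraries. The observed numbers lay within a factor of 3 of the expected ones in these gates of Ctrl, over expected numbers from 26.3 to 485.

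**Figure D4:**
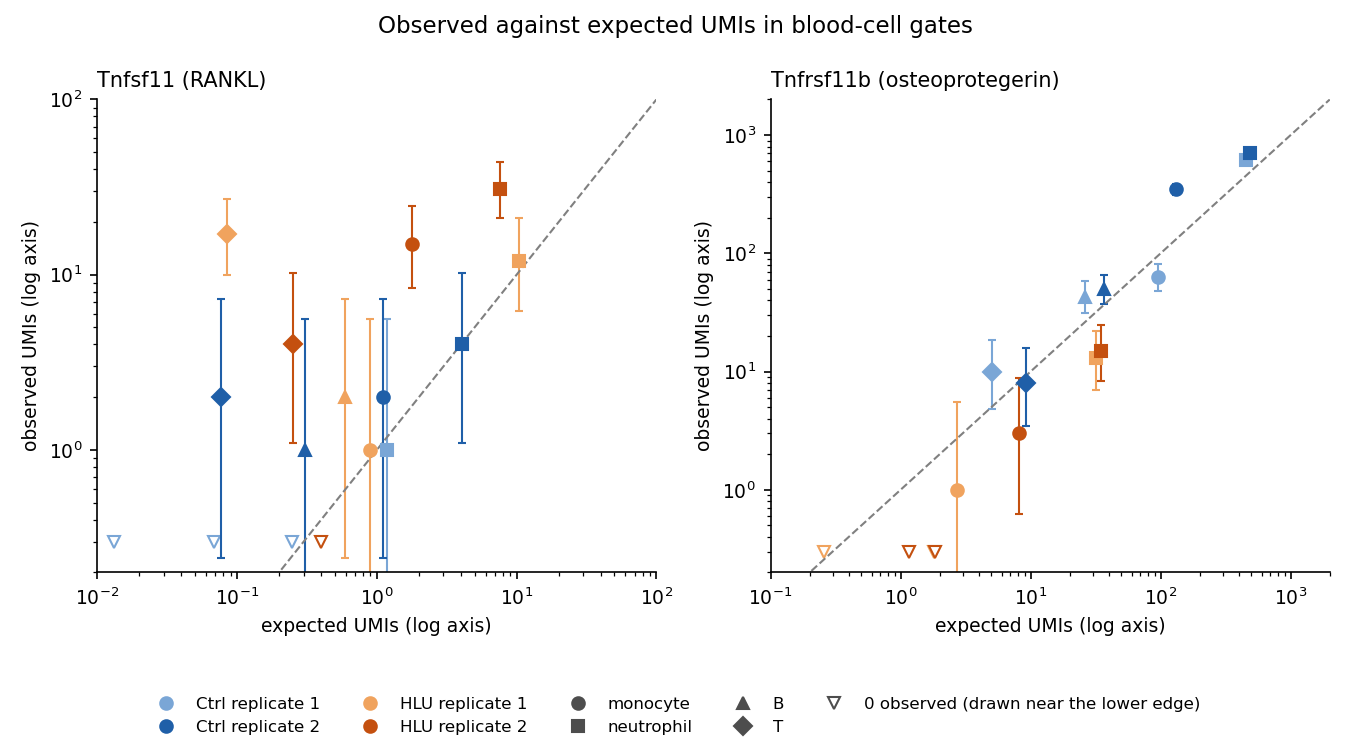
Observed UMIs (vertical log axis, exact Poisson intervals of 95%) of Tnfsf11 and Tnfrsf11b in the monocyte, neutrophil, B and T gates against the number expected from osteochondral RNA (horizontal log axis), coloured by library, with a dashed line of equality. Tnfrsf11b, where any UMI was seen, lay within a factor of 3 of the line over expected numbers up to 485, while the 17 Tnfsf11 UMIs in T cells of HLU replicate 1 lay far above the 0.0850 expected.

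Tnfsf11 UMIs in T cells were seen in 3 libraries, where the expected numbers were all under 1. Any UMI thus had to lie above them. The T gate had 0, 2, 17 and 4 Tnfsf11 UMIs in 43, 110, 69 and 351 cells, or 4.84 CPM in Ctrl replicate 2, 60.5 CPM (35.3 to 96.9) in HLU replicate 1 and 4.03 CPM (1.10 to 10.3) in HLU replicate 2. The 43 T cells of Ctrl replicate 1 had none, which allows a share of up to 6.98% of cells with a UMI when 3 counts are taken as the limit. In HLU replicate 1 the 17 UMIs came from 6 cells (8.70% of 69, 3.26% to 18.0%), and the number expected from osteochondral RNA was 0.0850. The expected numbers were 0.0771 in Ctrl replicate 2, a ratio of 25.9 (3.14 to 93.7), and 0.252 in HLU replicate 2, a ratio of 15.9 (4.33 to 40.7). The groups overlapped (exact permutation test, two-sided, p = 0.667, n = 2 per group). B cells had 0, 1, 2 and 0 Tnfsf11 UMIs. Monocytes had 0, 2, 1 and 15, of which 1 barcode held 9, and neutrophils had 1, 4, 12 and 31, of which 1 barcode of HLU replicate 2 held 20. Their ratios to the expected numbers were 0, 1.81, 1.11 and 8.40 (4.70 to 13.9) in monocytes. In neutrophils the ratios were 0.846, 0.986, 1.15 and 4.09 (2.78 to 5.81). In HLU replicate 2 numbers above the expected ones were thus not confined to T cells.

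RANK transcripts were read in monocytes, the lineage from which osteoclasts form. In monocytes Tnfrsf11a was 6.11 CPM (3.34 to 10.3) in Ctrl replicate 1, 9.71 CPM (6.64 to 13.7) in Ctrl replicate 2, 7.43 CPM (5.23 to 10.2) in HLU replicate 1 and 24.2 CPM (21.6 to 26.9) in HLU replicate 2. The first 3 libraries had overlapping intervals and HLU replicate 2 lay above them. The log2 fold change of HLU against Ctrl was 0.99 ± 0.65 (SE) and did not pass the test (edgeR adjusted p = 0.729). It rested on HLU replicate 2, since it became -0.19 (adjusted p = 0.938) without that library and 1.58 (adjusted p = 0.00633) without HLU replicate 1, with the spread taken from the Ctrl pair in both. The share of monocytes with a Tnfrsf11a UMI was 4.43% and 8.63% in Ctrl and 7.12% and 26.0% in HLU, and after thinning to 1000 UMIs 0.746%, 0.799%, 0.849% and 2.53%.

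Monocytes carried far more Tnfrsf11a than neutrophils in all 4 libraries. Neutrophils had 0 and 0 UMIs in Ctrl and 3 and 21 in HLU. Counts of 0 over the 2310 and 3239 Ctrl neutrophils allow up to 0.238 and 0.171 CPM. The measured monocyte levels of those libraries were 25.7-fold and 56.7-fold these limits, without the counting error of the monocyte levels. The log2 fold change fitted over the 4 libraries was 5.80 ± 0.46 (SE; edgeR adjusted p = 4.75e-05), where 53.1% of 12573 genes were called, 25.1% higher and 27.9% lower. In the osteoclast gate, which had 1, 7, 3 and 2 cells, Tnfrsf11a reached 489, 129, 37.7 and 156 CPM from 11, 13, 3 and 9 UMIs. Dendritic cells, 7, 13, 24 and 34 in number, had 52.1, 27.2, 28.4 and 62.0 CPM from 4, 3, 6 and 14 UMIs. The order of the means was osteoclast, dendritic, monocyte, and the intervals of neighbouring gates overlapped in some libraries. B cells had 0 Tnfrsf11a UMIs in all 4 libraries and T cells 1 in all.

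Monocytes with a Tnfrsf11a UMI were compared with those without. Csf1r, the M-CSF receptor, and Tyrobp and Fcer1g, adaptors of the costimulatory receptors that osteoclast formation needs, were higher in the former in all 4 libraries, 3 of the 10 genes of the costimulation list, while 7.79% of all 11871 genes with a UMI in the gate in every library were higher and 13.6% lower. Fcer1g was 3642 against 2163 CPM in Ctrl replicate 1, 3218 against 2265 in Ctrl replicate 2, 3413 against 2997 in HLU replicate 1 and 3865 against 3579 in HLU replicate 2. Of 23 RANK signalling genes 3 were higher (Tab2, Ikbkb and Mapk14) and 1 was lower (Traf6). Of 12 osteoclast genes 0 were higher in all 4 libraries and 3 were lower (Itgb3, Car2 and Ostm1). Monocytes with a UMI were deeper than the whole gate, with medians of 10723 to 18459 UMIs against 9171 to 12920.5.

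The other genes of the pathway were taken from fixed lists. In osteochondral cells edgeR called 0 of 5 tested genes for RANKL release and other partners, 0 of 23 for RANK signalling, 0 of 8 for costimulation and M-CSF, 0 of 9 osteoclast targets and 0 of 19 inputs to RANKL and osteoprotegerin. It called 0 of all 13125 genes tested there (0%), so these counts say nothing about the lists. The median log2 fold changes of the lists were -0.29, 0.06, 1.29, 0.84 and 0.49, against -0.02 over all genes tested. The costimulation list holds genes of blood cells, and the part of blood-cell RNA in its median was not tested. One of them, Fcer1g, was 43.3 and 40.0 CPM in Ctrl and 219 and 147 CPM in HLU, against 1942 to 2739 CPM in neutrophils. Among the genes with the most UMIs, Adam17, a protease that sheds membrane proteins, had a log2 fold change of -0.29 (adjusted p = 0.468), and Mmp14, a membrane protease, one of 1.78 (adjusted p = 0.261). Jun and Fos, which pair as a transcription factor, had -0.48 and -0.61 (adjusted p = 0.382 and 0.445), Fcer1g had 1.78 (adjusted p = 0.0940) and Ctsk, which encodes a collagen-cutting protease of osteoclasts, had -0.79 (adjusted p = 0.221). Ctnnb1, the β-catenin gene, and Il6st, the shared receptor of interleukin-6 family cytokines, had 0.31 and 0.13 (adjusted p = 0.531 and 0.889). Vdr, picked after its values were seen, was 0.894 and 1.74 CPM in Ctrl and 53.0 and 31.7 CPM in HLU (log2 fold change of 4.64 ± 0.44, edgeR adjusted p = 0.0908).

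In monocytes 0 genes of the partner, signalling, costimulation and osteoclast lists were called, out of 3, 22, 9 and 8 tested. Over all 10397 genes tested 1.13% were called, so these counts of 0 do not set the lists apart. Their median log2 fold changes were 0.31, 0.14, 0.50 and 0.11 against 0.03 over all genes. Tcirg1, a subunit of the osteoclast proton pump, had 0.42 (adjusted p = 0.733) and Acp5, the tartrate-resistant phosphatase, 0.05 (adjusted p = 0.989). Of 13 inputs, Osmr, the oncostatin M receptor, was called lower in HLU (log2 fold change of -5.92, edgeR adjusted p = 0.0218). Osmr was 10.9 and 10.6 CPM in Ctrl (25 and 35 UMIs) and 0.201 and 0.144 CPM in HLU (1 and 2 UMIs). Those HLU counts were under the limit of 3 counts, so the size of the fold change is poorly measured. In neutrophils Osmr and Il6st were called lower, by log2 fold changes of -5.29 and -2.81 (edgeR adjusted p = 0.0135 and 0.0388). Osmr had 67 and 99 UMIs there in Ctrl and 3 and 9 in HLU. Of the other lists 0 of the 5, 22, 8 and 9 tested genes were called, against 3.19% of all 12085 genes in neutrophils. Osmr was at 90.9 and 106 CPM in Ctrl osteochondral cells and 129 and 104 CPM in HLU ones, so the genes called lower in the blood-cell gates included ones that those skeletal cells express, and the part of free RNA in them was not tested.

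The lists were also compared between gates. Against neutrophils, 14 of 19 inputs were higher in osteochondral cells, 0 were lower and 5 were not called, where 37.0% of all genes were called higher and 31.5% lower. Osmr (log2 fold change of 5.71), Vdr (5.36) and Lifr (5.34) were among those higher. Runx2, on the same list, is itself a marker of the osteochondral gate, so the gating rule favours a higher level of it. Wnt5a, a Wnt ligand, had 0 UMIs in neutrophils of all 4 libraries and 71, 73, 10 and 13 in osteochondral cells. With 3 counts as the neutrophil limit, the measured osteochondral levels were 9.19-fold, 15.8-fold, 92.8-fold and 145-fold that limit. The counting error of the osteochondral levels is not in these folds. Of the costimulation genes 0 of 9 were higher and 8 lower, among them Btk (-5.72) and Tyrobp (-5.69). In monocytes against neutrophils, where 25.1% of all genes were called higher and 27.9% lower, 3 of 9 costimulation genes were higher and 4 lower. Trem2 (4.90) and Csf1r (3.90) were higher, and Tec (-1.75) and Tyrobp (-1.29) were lower. Csf1r is itself a marker of the monocyte gate, so the gating rule favoured its call and it is no separate result. Of 9 osteoclast targets 4 were higher, among them Acp5 (2.52) and Ctsk (2.16), and 3 were lower, among them Mmp9, a gelatinase stored by neutrophils (-6.50), and Car2, a carbonic anhydrase (-1.53). Of 23 RANK signalling genes 6 were higher and 4 lower.

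The genes most like each member across the 19 sums of gate and library with at least 50 cells were found among 12302 genes with at least 200 UMIs. For Tnfrsf11b they were Acan (r = 0.995), Sox9 (r = 0.993) and Col10a1 (r = 0.991), all cartilage genes. Tnfrsf11a was closest to Spint1 (r = 0.989), Ms4a4a (r = 0.966) and Gm32089 (r = 0.963), and Tnfsf11 to Esm1 (r = 0.938), Gsk3b (r = 0.916) and Slit2 (r = 0.912). These are Pearson correlations of log2(CPM + 1), given as a description, since the sums of a library share its free RNA and depth.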

How the data were processed

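Bone cells of 2 Ctrl and 2 HLU mice were measured with the 10x Genomics 3′ kit, and per the labels and methods the authors made raw UMI counts with Cell Ranger 6.0.0 on mm10 and deposited them without normalization. Depth ranged from 47819046 to 99849070 UMIs per library. The members, marker lists and pathway lists were chosen with earlier results of these data known. A marker counted when its UMIs exceeded what 30% of the profile of barcodes under 1000 UMIs would give (Poisson tail under 0.01). Gates needed 3 markers and more than any other list. Barcodes were mixed, and set aside, when a second list had at least 3 markers and at least 50% as many as the first. Sums per gate and library were tested with edgeR 4.0.16 (TMM, filterByExpr, quasi-likelihood F test, SE as the log2 fold change over the root of F), Benjamini-Hochberg over all genes tested; gates were compared with the library as a block. DESeq2 1.42.0 was an alternative, as were a gate of 4 markers, haemoglobin at most 0.2%, Scrublet-high barcodes removed (scanpy 1.11.5), 2000 UMIs, no filter on low counts, other gates' markers left out, the replicate number as a block and each library left out. A shared background, mixed barcodes kept, no upper UMI limit and a crossed pairing were added after the data were seen. Named genes were the members, up to 4 called genes of each list by size or else the 2 with the most UMIs, and the 3 most alike genes. Doublets stayed in otherwise. edgeR was tested on simulated data. Gene positions came from GENCODE M21. Libraries of a group were no duplicates (chi-square per degree of freedom of 109 and 594).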

Additional observations from a re-analysis of the deposited data

Results flagged for a closer look

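Barcodes over the upper UMI limit of 40000 were in no comparison above. In HLU replicate 1 they had 77.4 CPM of Tnfsf11, from 62 UMIs in 3 of 15 barcodes, above the 0 CPM (0 UMIs in 6 barcodes) of Ctrl replicate 1 and the 23.5 CPM (18 UMIs in 1 of 17 barcodes) of Ctrl replicate 2. They held 21.2% of that library's Tnfsf11 UMIs, and all 62 lay in osteochondral barcodes. In HLU replicate 2 the 230 such barcodes had 20.3 CPM, not above Ctrl replicate 2, but their 243 UMIs were 41.3% of the library's Tnfsf11. Of these 230 barcodes 9 were osteochondral and held 146 of the UMIs, and 77 were mixed and held 86. In Ctrl replicate 2, 10 of the 17 barcodes were osteochondral and held all 18 UMIs. The CPM values of these 2 libraries thus come from different mixtures of cells.

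For Tnfrsf11a the same barcodes had 7.49 CPM in HLU replicate 1 (6 UMIs) and 5.26 CPM in HLU replicate 2 (63 UMIs), above 0 CPM and 2.61 CPM (2 UMIs) in the Ctrl libraries. The HLU intervals of 2.75 to 16.3 and 4.04 to 6.73 CPM overlap that of Ctrl replicate 2, 0.316 to 9.42.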

How the results depend on the processing

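Of 253 values recomputed under an alternative, 209 kept their direction and their side of the threshold, 13 passed it newly, 28 counts or values moved and 3 reversed. For none of these was the cause tested. Without the filter on low counts edgeR called 1648 genes between HLU and Ctrl in osteochondral cells, 884 in monocytes and 1166 in neutrophils, against 0, 118 and 385. DESeq2 called 573 in osteochondral cells and 374 in monocytes. In osteochondral cells Tnfsf11 then had log2 fold changes of 4.12 (no filter) and 4.21 (DESeq2) and Tnfrsf11b -1.52 and -1.42, all past the threshold. The monocyte count became 21 with 4 markers required, 77 with doublets removed and 78 without other gates' markers, and the neutrophil count 146 with doublets removed. Leaving out 1 library gave 1 (without Ctrl replicate 1) to 1422 (without HLU replicate 1) calls in osteochondral cells, 64 (without Ctrl replicate 1) to 3432 (without HLU replicate 1) in monocytes and 60 (without Ctrl replicate 2) to 4774 (without HLU replicate 1) in neutrophils. It gave Tnfsf11 3.67 to 5.07, Tnfrsf11b -1.84 to -1.14 and monocyte Tnfrsf11a -0.19 to 1.58. In monocytes against neutrophils Tnfrsf11b (-0.39) became -1.79 with 4 markers, 0.084 with doublets removed and -1.32 to 0.23 with 1 library left out, the highest without Ctrl replicate 1. The osteochondral part of the Tnfsf11 UMIs was 56.5% with 4 markers, the HLU minus Ctrl difference in cells with Tnfsf11 was 7.10 percentage points after thinning against 16.1, and that in the ligand share was 28.7 with no upper UMI limit. The mean ratio of observed to expected Tnfrsf11b in Ctrl neutrophils, 1.40, was 1.26 with doublets removed, 1.48 with at least 2000 UMIs and 1.28 with mixed barcodes kept.

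The replicate numbers do not pair the mice, and the deviations of same-numbered libraries correlated at -0.14 in osteochondral cells. With the replicate block edgeR called 0, 156 and 554 genes, and Tnfsf11 had 4.35 (adjusted p = 0.0834) and Tnfrsf11b -1.47 (adjusted p = 0.273) in osteochondral cells. The crossed pairing, added after the data were seen, called 104, 250 and 605 genes, and Tnfsf11 had 4.36. The number of cells limits the HLU osteochondral values, which rest on 76 and 143 cells.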
